A study of Mus musculus with 20 samples.

Results

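The genes described here belong to the common gamma-chain cytokine system. They are the shared gamma chain Il2rg, the private receptor chains Il7r, Il15ra and Il21r, the beta chain Il2rb, the ligands Il7 and Il15, and the kinase Jak3. They were chosen by symbol, and the group was assembled around Il7r, which was itself selected on its measured level in Mcu knockout macrophages given zymosan. The values of the members below are therefore a description, with no test. All 8 symbols were found among the 21963 gene entries of the count table, and 6 of the 8 had enough counts to enter the fit across genes. Il7 and Il2rb did not.

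Cytokines of this family bind a private chain that pairs with the shared gamma chain encoded by Il2rg, and the kinase JAK3, bound to the gamma chain, works with JAK1 to phosphorylate STAT proteins, above all STAT5. IL-7 receptor signalling is best known for the survival of lymphocytes. Macrophages are known chiefly as a source of IL-15, which they hold at their surface on the IL-15 receptor alpha chain and present to neighbouring lymphocytes, and Il15 and Il15ra are known targets of interferon and NF-kB signalling.

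Bulk RNA was sequenced from bone-marrow-derived macrophages of mice aged 15 to 25 weeks, of both sexes, grown in L929-conditioned medium. Macrophages labelled WT were left untreated (4 libraries), were given the yeast cell-wall particle zymosan for 3 h (5 libraries), or were given zymosan after loading with the calcium chelator BAPTA-AM at 10 uM (4 libraries). Macrophages labelled Mcu-/-, which lack the pore subunit of the mitochondrial calcium uniporter, were left untreated (4 libraries) or were given zymosan for 3 h (3 libraries). The deletion was made with floxed Mcu and a Cre driven by Cx3cr1, so it covers cells that expressed Cx3cr1 during their development. No Mcu knockout library was treated with BAPTA-AM, and no library had BAPTA-AM without zymosan.

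The total per library ran from 14.4 M to 24.0 M counted reads, with a median of 20.78 M, and was lowest in replicate 4 of WT untreated. WT untreated libraries held 19.1 M, 19.32 M, 19.11 M and 14.42 M counts, and WT zymosan libraries 20.31 M, 22.17 M, 22.38 M, 21.05 M and 20.49 M. WT zymosan libraries with BAPTA-AM held 20.5 M, 20.12 M, 17.37 M and 21.75 M. Mcu knockout libraries held 22.1 M, 22.8 M, 22.33 M and 21.89 M counts untreated and 20.06 M, 21.12 M and 23.95 M with zymosan. The knockout zymosan libraries are called replicates 3, 4 and 5, as in the count table, while their sample titles number them 1 to 3. In what follows a normalized count is the count scaled by library size and composition to a library of 20.6 M counts, and it compares 1 gene between libraries.

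Mcu itself separated the genotypes in each library. Its normalized count was 172, 134, 158 and 141 in WT untreated, 149, 143, 131, 135 and 126 in WT zymosan, and 197, 144, 153 and 161 in WT zymosan with BAPTA-AM. In the Mcu knockout it was 58.7, 77.7, 54.2 and 83.4 untreated and 75.2, 74.6 and 82.0 with zymosan. All 7 knockout libraries lay below all 13 WT libraries, and some Mcu reads remained in each knockout library. With zymosan, the knockout stood at -0.82 relative to WT on the log2 scale (SE 0.14), with the 3 knockout libraries below the 5 WT libraries (adjusted p = 9.61e-05 by edgeR). Untreated, it stood at -1.14 (SE 0.13), with the 4 knockout libraries below the 4 WT libraries (adjusted p = 1.63e-04 by edgeR), and at -1.25 without the replicate described next (adjusted p = 8.33e-09).

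1 library stood apart from its group. Replicate 4 of the untreated Mcu knockout differed from each of the other 3 replicates by a mean chi-square per gene of 206, 214 and 211, where 1 stands for counting error alone. All other pairs of replicates in the 5 groups had values from 1.6 to 6.24. The spread between replicates, as the biological coefficient of variation that edgeR estimates over all groups, was 12.4% with that library and 3.56% without it. Its Il7r level was 899, against 63.2 to 70.9 in the other 3 untreated knockout libraries and 944 to 1010 in the knockout libraries given zymosan. Its Jak3 level was 564, against 934 to 997 and 631 to 661. Its Il15 level of 111 and Il15ra level of 22.1, by contrast, lay with the untreated libraries. Where leaving it out changed a result much, the value without it is given too.

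The macrophage label was checked against marker genes. The 8 macrophage markers (Csf1r, Adgre1, Cd68, Lyz2, Itgam, Mertk, Mrc1 and C1qa) were all measured, and Lyz2, encoding lysozyme, was the most abundant in each group. Their summed level is given in CPM, here counts scaled by library size and composition to a library of 1 M. The sum was 13814 to 14179 in WT untreated, 15535 to 15874 in WT zymosan and 13961 to 14262 with BAPTA-AM. It was 9612 to 9920 in the Mcu knockout given zymosan, 8885 in replicate 4 of the untreated knockout, and up to 15244 in the other libraries of that group. Lyz2 stood at 2823 CPM in that replicate and at 3217 to 3280 in the knockout with zymosan, against 6886 to 7517 in WT untreated and 7993 to 8326 in WT zymosan. Macrophage marker RNA was thus abundant in all 20 libraries, with a lower sum in the 3 knockout libraries with zymosan and in replicate 4. The markers did not move together in these 4 libraries. Lyz2, Adgre1, Itgam and Mrc1 were lower there than in all the other 16 libraries, and Csf1r, Cd68, Mertk and C1qa were higher, with Cd68 at 23537 to 24213 normalized counts in knockout zymosan and 20010 in replicate 4, against 5995 to 6625 in WT zymosan.

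Among the ligands, Il15, which encodes the cytokine IL-15, was low in untreated macrophages and high with zymosan. Its normalized count was 100.2, 73.4, 69.7 and 82.1 in WT untreated and 2218, 1989, 1887, 2346 and 2121 in WT zymosan. With BAPTA-AM it was 1506, 1359, 1755 and 1668. Knockout libraries held 89.2, 125, 95.6 and 111 untreated and 2828, 2816 and 2802 with zymosan. The order of group means was WT untreated (81.4 ± 13.6, SD, n = 4), knockout untreated (105 ± 15.9, n = 4), WT zymosan with BAPTA-AM (1572 ± 175, n = 4), WT zymosan (2112 ± 181, n = 5) and knockout zymosan (2815 ± 12.7, n = 3). The untreated groups overlapped, and the 3 zymosan groups did not overlap with each other or with the untreated groups.

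As differences on the log2 scale, Il15 with zymosan stood 4.70 (SE 0.12) above untreated in WT and 4.74 (SE 0.12) above untreated in the knockout, a 25.9-fold and a 26.7-fold difference. These responses differed from each other by 0.04 (SE 0.16). Among zymosan-treated macrophages, Il15 was higher in the knockout by 0.41 (SE 0.10) and lower with BAPTA-AM by 0.43 on the log2 scale (SE 0.09). The knockout and BAPTA-AM comparisons share the 5 WT zymosan libraries. Il15 thus lay on opposite sides of the shared WT zymosan libraries in these comparisons.

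Il7, which encodes IL-7, was near 0 in all groups. Its raw counts were 0, 0, 1 and 1 in WT untreated, 4, 3, 1, 3 and 0 in WT zymosan, and 1, 0, 2 and 0 with BAPTA-AM. Knockout libraries held 0, 0, 1 and 3 untreated and 2, 1 and 4 with zymosan. No difference in Il7 was detectable at this depth. A long non-coding antisense gene, absent from the count table, shares 105 exon bases with Il7.

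Among the receptor chains, Il7r, the private chain of the receptors for IL-7 and TSLP, showed the pattern for which the group was chosen. Its normalized count was 60.6, 64.7, 52.9 and 49.7 in WT untreated and 101, 128, 98.8, 90.3 and 115 in WT zymosan. With BAPTA-AM it was 174, 132, 131 and 118. In the Mcu knockout it was 70.9, 66.7, 63.2 and 899 untreated and 1010, 944 and 972 with zymosan. The 3 knockout zymosan libraries and replicate 4 of the untreated knockout lay above all the other 16 libraries, none of which passed 174. WT untreated overlapped with the other 3 untreated knockout libraries, and WT zymosan overlapped with WT zymosan with BAPTA-AM.

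The group means of Il7r were 57.0 ± 6.88 (SD, n = 4) in WT untreated, 107 ± 14.9 (n = 5) in WT zymosan, 139 ± 24.3 (n = 4) with BAPTA-AM and 975 ± 33.1 (n = 3) in knockout zymosan. The untreated knockout mean was 275 ± 416 with replicate 4 and 66.9 ± 3.83 (n = 3) without it. Between zymosan-treated genotypes, Il7r stood 3.19 higher in the knockout on the log2 scale (SE 0.62), a 9.13-fold difference, and the same 3.19 (SE 0.09) without replicate 4. The zymosan difference in WT was 0.90 (SE 0.69), or 0.89 (SE 0.13) without it. Mainly the errors of these differences changed with that library, which belongs to neither comparison and enters through the shared estimate of spread.

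Differences of Il7r that use the untreated knockout did depend on replicate 4. The untreated difference between genotypes was 2.25 (SE 0.67) with it and 0.22 (SE 0.15) without it. The zymosan difference within the knockout was 1.84 (SE 0.62) with it and 3.86 (SE 0.10) without it. The zymosan response of the knockout exceeded that of WT by 0.94 (SE 0.93) with it and by 2.97 (SE 0.18) without it. With BAPTA-AM, Il7r stood 0.38 above WT zymosan (SE 0.63), and the same 0.38 (SE 0.11) without replicate 4, in groups that overlapped.

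**Figure D1:**
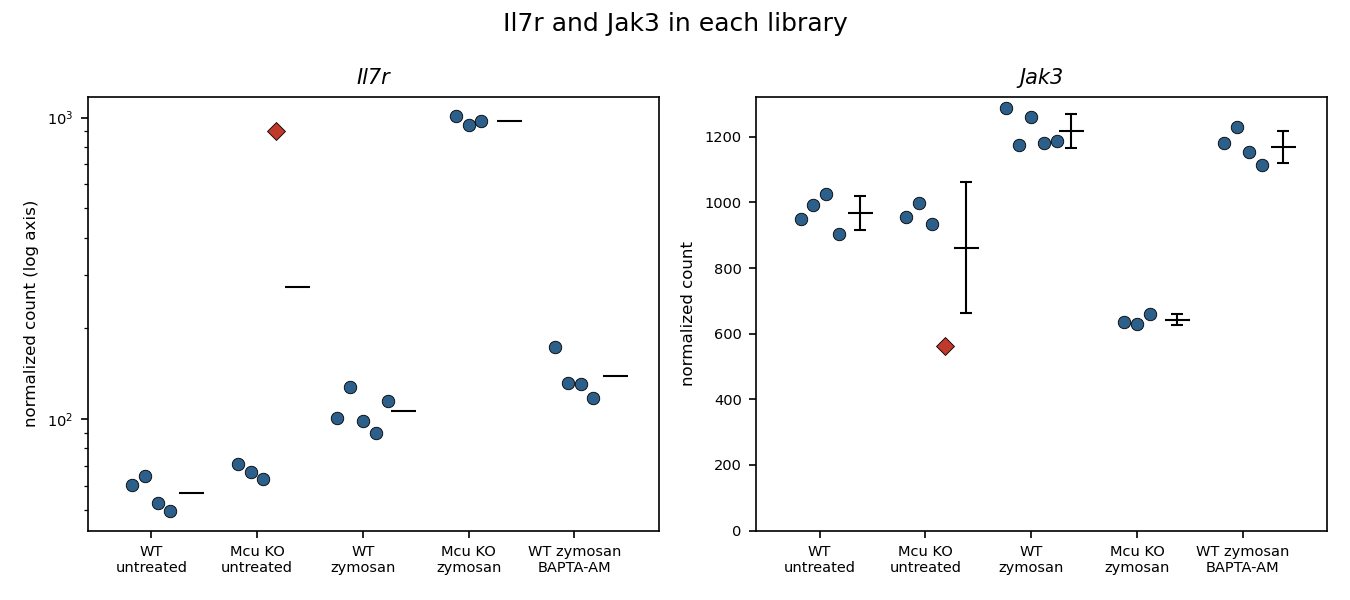
Normalized counts of Il7r (left, log axis) and Jak3 (right, linear axis from 0) in each of the 20 libraries, by group; circles are libraries, the red diamond is replicate 4 of the untreated Mcu knockout, black dashes are means over all libraries of a group, and the bars on the right are SD. The 3 knockout zymosan libraries hold 944 to 1010 counts of Il7r and 631 to 661 of Jak3, and the diamond lies at 899 and 564.

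Marker levels of other cell types are given here because Il7r is best known from lymphocytes. In bulk RNA, fewer cells of a type and less RNA per cell cannot be told apart. 3 of the 8 T cell markers were measured above the filter, with Cd28, a costimulatory receptor, the most abundant in each group. The summed T cell level was 8.60 to 9.50 CPM in knockout zymosan and 13.1 in replicate 4 of the untreated knockout. It was 2.97 to 3.14 in WT untreated, 3.18 to 5.13 in WT zymosan and 3.66 to 4.70 with BAPTA-AM. Of the defining T cell genes, Cd8a was at 0 in all 20 libraries, and Cd3e was at 0 in all of them but 1 knockout zymosan library with 1 count, and Cd3d and Cd3g were at 0 in knockout zymosan. The sum was thus higher in the same 4 libraries that were high in Il7r, and Cd28 (4.36 to 5.27 in knockout zymosan and 9.48 in replicate 4) and Cd4 supplied most of it. Cd4 held 64.1 to 75.2 normalized counts in knockout zymosan and 72.0 in replicate 4, against 18.9 to 37.6 in WT zymosan. Lck, a kinase gene of T cells, went the other way, at 10.9 to 14.0 in knockout zymosan against 16.9 to 32.9 in WT zymosan, and stood at 1.64 in replicate 4, against 0 to 1.52 in the other untreated libraries.

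B cell markers moved the other way. 5 of 8 were measured above the filter, and Cd79b, a chain of the B cell receptor, was the most abundant. Their summed level was 13.2 to 13.6 CPM in knockout zymosan and 18.8 in replicate 4. It was 53.6 to 56.0 in WT untreated, 30.8 to 37.4 in WT zymosan and 31.9 to 34.6 with BAPTA-AM. Rag1 and Igll1, genes of early B cells, had at most 1 count in any library.

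Stromal markers, 5 of 8 above the filter and led by the collagen gene Col1a2, summed to 47.0 to 55.6 CPM in knockout zymosan and 29.9 in replicate 4. They summed to 2.97 to 4.71 in WT untreated, 5.98 to 8.01 in WT zymosan and 4.58 to 5.82 with BAPTA-AM. Lum had 0 to 4 counts in each of the 20 libraries. The stromal sum was thus high in the same 4 libraries as Il7r. Neutrophil markers, 2 of 8 above the filter and led by S100a9, summed to 0.497 to 0.765 in knockout zymosan and 0.159 in replicate 4, against 2.57 to 4.01 in WT untreated, 3.40 to 5.32 in WT zymosan and 2.41 to 3.36 with BAPTA-AM.

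NK and innate lymphoid markers, with Il1rl1 on top and Ncr1 at 0 in all groups, had 1 of 8 above the filter and summed to 0.166 to 1.33 CPM over the 20 libraries. Mast cell and basophil markers, led by Gata2 with Fcer1a at 0 in all groups, also had 1 of 8 above the filter. They summed to 0.824 to 1.30 in knockout zymosan, where Gata2 held 10, 15 and 24 counts, and to 0.278 in replicate 4, against 0.438 to 0.879 in WT zymosan, 0.381 to 0.819 with BAPTA-AM and 0.171 to 0.594 in WT untreated. Dendritic cell markers, 2 of 8 above the filter and led by the chemokine receptor Xcr1 with Cd209a at 0 in all groups, summed to 1.02 to 1.41 in WT untreated, 0.952 to 1.35 in the untreated knockout, with replicate 4 at 0.952, 9.36 to 10.2 in WT zymosan, 10.9 to 12.2 in knockout zymosan and 5.84 to 7.37 with BAPTA-AM. The part of any of these cell types, or of the changed macrophage marker levels, in the Il7r level was not tested.

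Il15ra, the private chain that binds IL-15 and carries it at the cell surface, was near the bottom of the measured range in untreated macrophages. Its normalized count was 19.3, 15.7, 13.2 and 24.3 in WT untreated and 906, 829, 795, 908 and 749.6 in WT zymosan. With BAPTA-AM it was 783, 808, 929.9 and 791. Knockout libraries held 19.8, 18.3, 15.8 and 22.1 untreated and 604, 648 and 662 with zymosan. The untreated groups overlapped, the WT zymosan groups with and without BAPTA-AM overlapped, and the knockout zymosan libraries lay between these pairs.

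On the log2 scale, Il15ra with zymosan stood 5.54 (SE 0.12) above untreated in WT and 5.06 (SE 0.12) in the knockout, a 46.7-fold and a 33.5-fold difference. It was lower in the knockout than in WT with zymosan, by -0.39 (SE 0.09), while its ligand Il15 was higher in the same libraries. The difference with BAPTA-AM was -0.02 (SE 0.08). Ligand and receptor chain thus were both higher with zymosan and had opposite genotype differences.

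Il2rg, the gamma chain itself, was well above the filter in all libraries. Normalized counts were 1176, 1172, 1148 and 1182 in WT untreated and 2494, 2441, 2462, 2411 and 2373 in WT zymosan. With BAPTA-AM it was 2251, 2218, 2038 and 2146. For the knockout it was 1235, 1137, 1150 and 964 untreated and 2302, 2229 and 2351 with zymosan. Zymosan groups lay above untreated groups in both genotypes, by 1.06 (SE 0.05) in WT and 1.03 (SE 0.06) in the knockout on the log2 scale. The genotype difference with zymosan was -0.09 (SE 0.06) and the BAPTA-AM difference -0.17 (SE 0.05), each in groups that did not overlap. The knockout and BAPTA-AM groups overlapped with each other. Another annotated gene, Gm20489, shares 728 exon bases with Il2rg on the same strand, and it held at most 1 count in any library.

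Il21r, the private chain for IL-21, was the member with a lower level in all 3 zymosan groups. Normalized counts were 2789, 2994, 2975 and 2988 in WT untreated and 1026, 969, 966, 1016 and 1004 in WT zymosan. With BAPTA-AM it was 597, 541, 562 and 558. For the knockout it was 3054, 2885, 3019 and 2488 untreated and 1317, 1347 and 1283 with zymosan. The order of group means was BAPTA-AM (564 ± 23.5, SD, n = 4), WT zymosan (996 ± 27.5, n = 5), knockout zymosan (1315 ± 32.0, n = 3), knockout untreated (2861 ± 259, n = 4) and WT untreated (2937 ± 98.7, n = 4). Of these neighbours, just the untreated groups overlapped.

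The zymosan difference of Il21r on the log2 scale was -1.56 (SE 0.05) in WT and -1.12 (SE 0.06) in the knockout, and the knockout's was less negative by 0.44 (SE 0.08). Without replicate 4, the last 2 values were -1.18 and 0.38. With zymosan, Il21r was higher in the knockout by 0.40 (SE 0.06) and lower with BAPTA-AM by 0.82 (SE 0.05). Il15 and Il21r had these directions in common, up in the knockout and down with BAPTA-AM, from the same WT zymosan libraries.

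Il2rb, the beta chain that the receptors for IL-2 and IL-15 share, had 2 counts in replicate 3 of the untreated knockout and 0 in the other 19 libraries. A count of 0 allows up to 3 counts by counting error alone, so its RNA was not detectable at this depth.

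**Figure D2:**
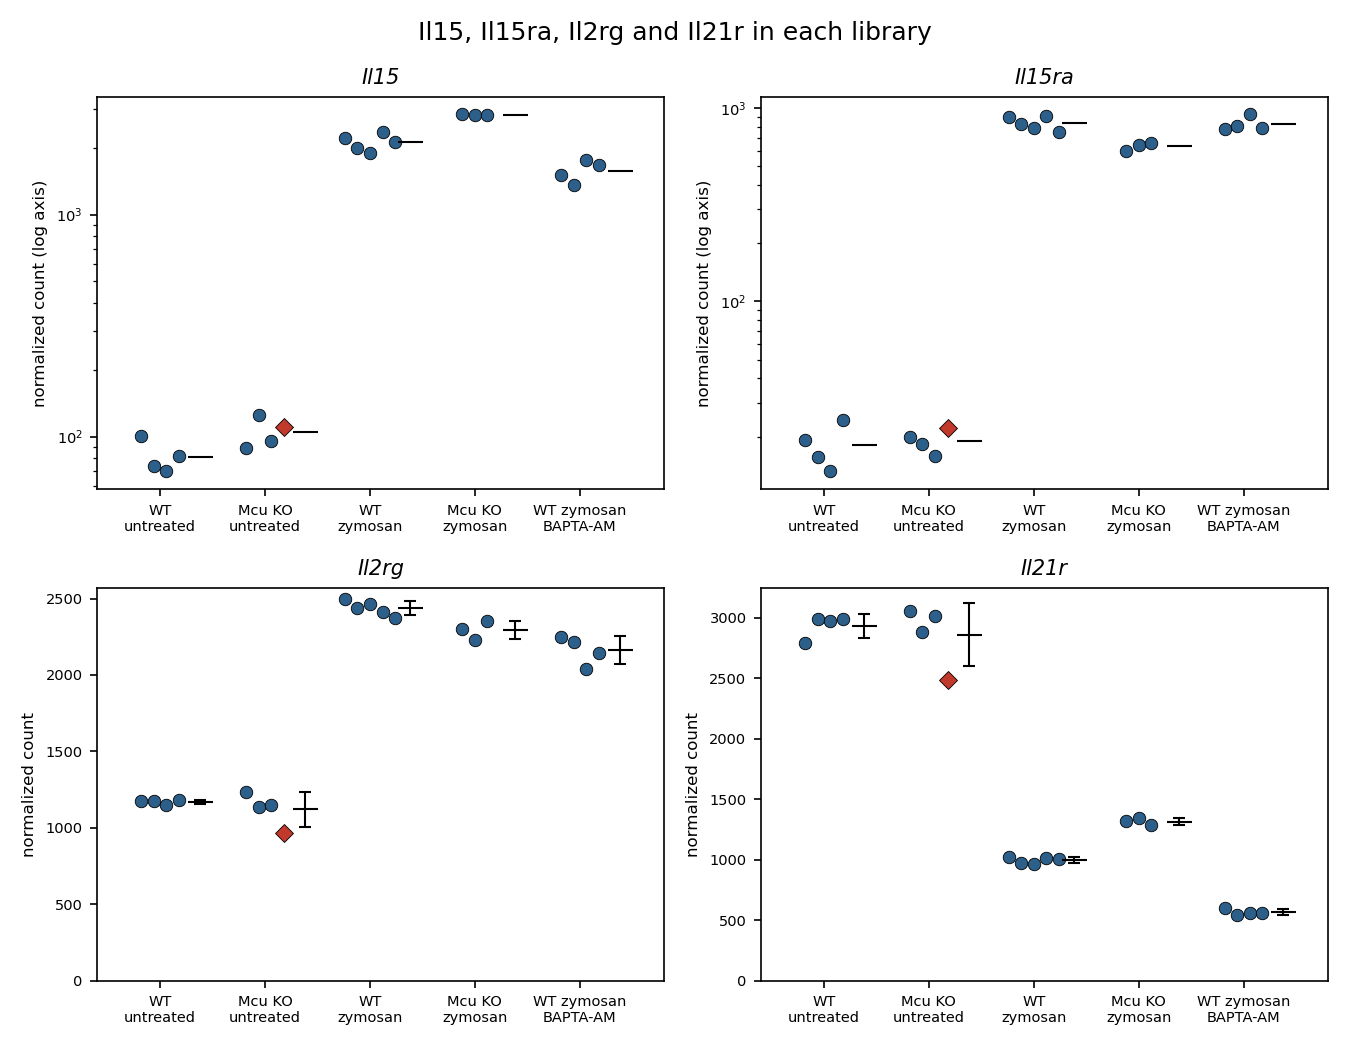
Normalized counts of Il15 and Il15ra (log axes) and of Il2rg and Il21r (linear axes from 0) in each of the 20 libraries, by group; circles are libraries, the red diamond is replicate 4 of the untreated Mcu knockout, black dashes are means and the bars on the linear panels are SD. Il15, Il15ra and Il2rg are higher in all 3 zymosan groups than in the untreated groups, and Il21r is lower.

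Jak3, the kinase that binds the gamma chain, was lower in the knockout with zymosan. Its normalized count was 949, 991, 1025 and 904 in WT untreated and 1287, 1174, 1262, 1181 and 1186 in WT zymosan. With BAPTA-AM it was 1180, 1231, 1154 and 1113. In the Mcu knockout it was 956, 997, 934 and 564 untreated and 637, 631 and 661 with zymosan. The 3 knockout zymosan libraries and replicate 4 of the untreated knockout were the 4 lowest of the 20 libraries, the same 4 libraries that were highest in Il7r.

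The group means of Jak3 were 643 ± 15.9 (SD, n = 3) in knockout zymosan, 863 ± 201 (n = 4) in knockout untreated (962 ± 31.7 without replicate 4), 967 ± 52.4 (n = 4) in WT untreated, 1169 ± 49.2 (n = 4) with BAPTA-AM and 1218 ± 52.3 (n = 5) in WT zymosan. With zymosan, Jak3 was lower in the knockout by -0.92 on the log2 scale (SE 0.12), a 1.89-fold difference. The zymosan difference was 0.33 (SE 0.11) in WT and -0.42 (SE 0.13) in the knockout, and these differed by -0.76 (SE 0.17). Without replicate 4, the last 2 values were -0.58 and -0.91. The gene Insl3 shares 404 exon bases with Jak3 on the same strand, and it held 0 to 20 counts per library.

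**Figure D3:**
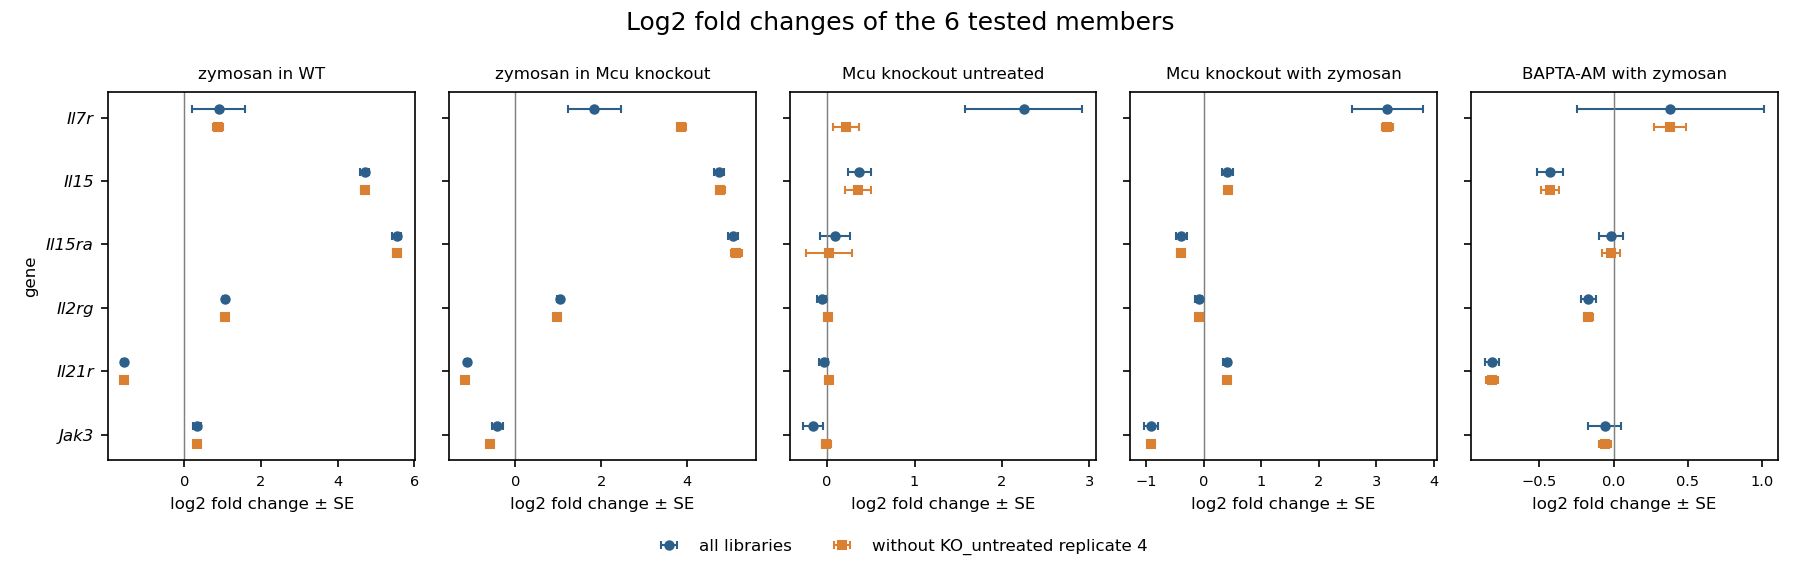
Log2 fold changes of the 6 fitted members in 5 comparisons; points are estimates and bars are SE, blue for all 20 libraries and orange without replicate 4 of the untreated Mcu knockout. The Il7r estimate moves from 2.25 to 0.22 in the untreated genotype comparison and from 1.84 to 3.86 in the zymosan comparison within the knockout.

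Levels can be compared between members only per length, here as RPKM (CPM, scaled by library size and composition as above, per kilobase of merged exons, mean of a group). In WT untreated the order was Il21r (42.9), Il2rg (23.8), Jak3 (8.77), Il15 (1.75), Il7r (0.593) and Il15ra (0.198), with no overlap between neighbours. In WT zymosan it was Il2rg (49.5), Il15 (45.3), Il21r (14.5), Jak3 (11.0), Il15ra (9.14) and Il7r (1.11), where Il2rg and Il15 overlapped. In knockout zymosan it was Il15 (60.4), Il2rg (46.6), Il21r (19.2), Il7r (10.1), Il15ra (6.96) and Jak3 (5.83), with no overlap between neighbours. Il7r was thus the lowest of the 6 in WT zymosan and lay above Il15ra and Jak3 in knockout zymosan.

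With BAPTA-AM the RPKM order was Il2rg (44.0), Il15 (33.7), Jak3 (10.6), Il15ra (9.03), Il21r (8.24) and Il7r (1.44), where Il15ra came up to the range of Jak3 and overlapped with Il21r. In the untreated knockout it was Il21r (41.8), Il2rg (22.8), Jak3 (7.82), Il7r (2.86), Il15 (2.26) and Il15ra (0.207). Without replicate 4 the RPKM of Il7r in that group was 0.696, below the 2.21 of Il15.

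Counts of members called by the fit across genes (edgeR adjusted p under 0.05) are set beside the share of all 11707 genes called, and nothing is read from them. With zymosan in WT, 4 were called higher, against 32.4% of genes, and 1 lower, against 36.8%. In the knockout with zymosan against WT with zymosan, 3 were called higher (31.8%) and 2 lower (30.3%). With BAPTA-AM, edgeR called 0 higher (6.43%), with 0 at an unadjusted p under 0.05 and 0 by DESeq2, and 3 lower (6.33%). In the untreated knockout edgeR called 0 higher (0.128%) and 0 lower (0.222%), with 2 higher and 0 lower at an unadjusted p under 0.05 and 0 and 0 by DESeq2. With zymosan in the knockout 4 were called higher (34.3%) and 2 lower (39.4%). For the difference between the zymosan responses of the genotypes, 1 was called higher (15.2%) and 1 lower (20%). Without replicate 4, the counts higher and lower were 5 and 1 for zymosan in WT (37.2% and 41.3% of the 11666 genes then tested), 3 and 3 between zymosan-treated genotypes (36.4% and 33.7%), 1 and 3 with BAPTA-AM (15.3% and 16.5%), 4 and 2 for zymosan in the knockout (39.2% and 42.4%), and 2 and 1 for the difference (31.0% and 29.3%). The untreated counts were the same as with it (1.53% and 1.83%).

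The other genes of the pathway were taken from 8 lists: other ligands (Il2, Il4, Il9, Il21 and Tslp), other receptor chains, other JAK and STAT genes, inhibitors, adaptor and PI3-kinase genes, target genes, and genes listed as regulators of Il7r and of Il15. They hold 54 genes, of which 48 passed the filter on low counts. Il2, Il9, Il21, Tslp, Il9r and Socs2 did not, with 0 to 7 counts per library. All adjusted p-values of list genes come from edgeR over the 11707 genes tested. The comparisons share libraries: the knockout and BAPTA-AM comparisons share WT zymosan, and the comparisons of zymosan within a genotype share their groups with the genotype comparisons.

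With zymosan in WT macrophages, more list genes were called higher than lower. 31 of the 48 were called higher, against 32.4% of all genes tested, and 10 lower, against 36.8%, by edgeR, and their median log2 fold change was 0.55, against -0.04 over all genes tested. Up to 4 genes are named from each list, those with the largest log2 fold changes, 28 in all. In each of the 28, all 5 zymosan libraries lay on 1 side of all 4 untreated libraries. As the genes were chosen as called and most changed in these same libraries, this separation largely follows from the choice and is a description. The largest edgeR adjusted p was 7.53e-04.

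Several feedback inhibitors rose in WT. Socs1 (7.43, SE 0.09), Socs3 (6.66, SE 0.10) and Cish (5.42, SE 0.23), which block cytokine receptor signalling, rose together with the phosphatase gene Ptpn2 (1.79, SE 0.06), all as log2 fold changes. 5 of the 7 measured inhibitors rose and 2 fell, with a median of 1.79. Of the 7 other JAK and STAT genes, 5 rose and edgeR called 0 lower (0 at an unadjusted p under 0.05 and 0 by DESeq2, but 1, Stat6, without replicate 4 of the untreated knockout), with a median of 0.61. The kinase gene Jak2 (2.42, SE 0.04) and the transcription factor genes Stat5a (2.42, SE 0.07), Stat3 (1.49, SE 0.05) and Stat5b (0.61, SE 0.04) led them.

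The 4 measured genes in the list of other receptor chains, which leaves out the members, rose in WT, with a median of 0.78: Il2ra (1.84), the alpha chain of the IL-2 receptor, Il13ra1 (1.18), Il4ra (0.38) and Crlf2 (0.32), the partner of Il7r in the TSLP receptor. Of the 9 target genes, 4 rose and 3 fell, with a median of -0.32 (4 and 5 without replicate 4 of the untreated knockout), and the largest changes were in the kinase gene Pim1 (6.25), the cytokine gene Osm (2.14), the cyclin gene Ccnd2 (1.98) and Myc (-1.37). Of the 7 adaptor and PI3-kinase genes, 3 rose and 2 fell, with a median of 0.03. Sos1 (1.56), an exchange factor for RAS, and Gab2 (0.64) rose, and Pik3r1 (-1.01), a regulatory subunit of PI3-kinase, and Shc1 (-0.22) fell.

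Listed regulators changed in WT as well. Of the 8 regulators of Il7r, 6 rose and 2 fell, with a median of 0.48. Nr3c1 (1.00), the glucocorticoid receptor gene, rose. Gfi1 (4.75, SE 0.63), a repressor of Il7r in lymphocytes, held 0, 2, 0 and 0 counts untreated and 12 to 17 with zymosan. It passed the filter on low counts through zymosan libraries, and was called too with no filter beyond 1 count in any library. Without replicate 2 of WT untreated its fitted value was 7, against a group then at 0. Foxo1 (-1.52), an activator of Il7r in lymphocytes, and Tsc22d3 (-1.39), a glucocorticoid target, fell. Tsc22d3 is counted among the regulators of Il7r as a glucocorticoid target, and an action of it on Il7r was not tested. Of the 5 regulators of Il15, 4 rose and 1 fell, with a median of 2.36, led by the interferon regulatory factor genes Irf1 (5.39) and Irf7 (3.76) and the NF-kB genes Nfkb1 (2.36) and Rela (1.68). Il4, the only other ligand measured, gave -0.55 (SE 0.31), and edgeR called 0 ligands in either direction, with 0 at an unadjusted p under 0.05 and 0 by DESeq2.

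Between the genotypes with zymosan, more list genes were lower in the knockout than higher. 13 of 48 were called higher (31.8% of all genes tested) and 24 lower (30.3%), with a median log2 fold change of -0.12, against 0.02 over all genes tested. Among the 28 genes named, the 3 knockout libraries did not overlap with the 5 WT libraries, which again largely follows from the choice. The largest edgeR adjusted p was 0.0475. That p belongs to Osm (-0.43, SE 0.18), whose call was lost on leaving out any of 13 libraries, at adjusted p from 0.0510 to 0.142. The calls of Crlf2 (0.18) and Irf3 (-0.23) were lost without replicate 3 (adjusted p = 0.0605 and 0.0762) or replicate 4 (adjusted p = 0.0668 and 0.0746) of knockout zymosan, by edgeR.

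Most inhibitors and adaptors measured, though not all, were lower in the knockout with zymosan. Of the 7 inhibitors 5 fell and edgeR called 0 higher (0 at an unadjusted p under 0.05 and 0 by DESeq2), with a median of -0.50. These included Ptpn1 (-1.24, SE 0.06), a phosphatase that acts on JAK kinases, the adaptor gene Sh2b3 (-0.90, SE 0.07), Socs3 (-0.52, SE 0.08) and the phosphatase gene Ptpn6 (-0.50, SE 0.10). Of the 7 adaptor and PI3-kinase genes 5 fell and 1 rose, with a median of -0.33. Pik3cd (-1.43, SE 0.19), a catalytic subunit of PI3-kinase in leukocytes, Sos1 (-0.98) and Shc1 (-0.33) fell, and Pik3r1 (0.63) rose.

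The STAT genes split between directions in the knockout with zymosan. 2 of the 7 other JAK and STAT genes rose and 3 fell, with a median of 0.02. Stat3 (-0.78), Stat5a (-0.66) and Stat5b (-0.25) were lower, and Stat6 (0.24, SE 0.07), which acts downstream of the IL-4 receptor, was higher. 2 of the 4 other receptor chains rose and 2 fell, with a median of -0.54. Il2ra (-1.61, SE 0.27) and Il4ra (-1.27, SE 0.04), the IL-4 receptor chain, were lower, and Il13ra1 (0.46) and Crlf2 (0.18) were higher. Il4 (1.21, SE 0.32, edgeR adjusted p = 0.00303) was higher in the 3 knockout libraries than in the 5 WT libraries, at means of 15.9 and 6.92 normalized counts.

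Of the 9 target genes, 1 rose and 4 fell in the knockout with zymosan, with a median of -0.09 (2 and 5 without replicate 4 of the untreated knockout). The kinase gene Pim2 (-1.36, SE 0.22), Id2 (-0.60) and Osm (-0.43) were lower, and the survival gene Bcl2 (0.83, SE 0.22), a known target of IL-7 signalling in lymphocytes, was higher. Of the 8 regulators of Il7r, 4 rose and 4 fell, with a median of -0.09. Foxo1 (0.82, SE 0.13) and Tsc22d3 (1.01, SE 0.17) were higher, and Ets1 (-0.61, SE 0.09) was lower. Gfi1 (-1.46, SE 0.46) held 5, 5 and 5 counts against 12 to 17 in WT zymosan, the group through which it passed the filter, and was called lower also with no filter beyond 1 count in any library. In the same libraries Il7r was high, and the part of these regulators in its level was not tested.

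Of the 5 regulators of Il15, 2 rose and 1 fell in the knockout with zymosan, with a median of 0.21: Rela (0.38), Nfkb1 (0.21) and Irf3 (-0.23). Irf7 gave 1.30 (SE 0.68, edgeR adjusted p = 0.105), with the 3 knockout libraries above the 5 WT libraries. Without replicate 4 of the untreated knockout, Irf7 and Irf1 were among the genes called higher as well, and the counts over all lists were 16 higher (36.4% of genes) and 25 lower (33.7%).

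BAPTA-AM with zymosan was compared with zymosan alone, which asks how levels under zymosan differ when calcium is chelated. As no library had BAPTA-AM without zymosan, a changed response and a changed level before zymosan cannot be told apart. 3 of 48 list genes were called higher (6.43% of all genes tested) and 9 lower (6.33%), with a median log2 fold change of -0.09, against 0.00 over all genes tested. These 12 are all named, and in each of them the 4 BAPTA-AM libraries did not overlap with the 5 WT zymosan libraries. This separation largely follows from naming called genes. The largest edgeR adjusted p was 0.0427. Without replicate 4 of the untreated knockout, 4 genes were called higher (15.3% of genes) and 23 lower (16.5%), although that library is in neither group.

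The genes lower with BAPTA-AM came from 5 lists. Osm (-0.94, SE 0.17) and the survival gene Mcl1 (-0.32) were lower among the 9 target genes, and Bcl2l1 (0.28, SE 0.09) was higher, with a median of -0.01. Cish (-0.82, SE 0.15), Ptpn1 (-0.43) and Socs3 (-0.38) were lower among the 7 inhibitors, where edgeR called 0 higher (0 at an unadjusted p under 0.05 and 0 by DESeq2), with a median of -0.14. Jak2 (-0.43, SE 0.04) and Stat5a (-0.25) were lower among the 7 JAK and STAT genes, where the count called higher was 0 by edgeR, 0 at an unadjusted p under 0.05 and 0 by DESeq2, with a median of -0.08. Il4ra (-0.55, SE 0.04) was lower among the 4 other receptor chains (edgeR called 0 higher, with 0 at an unadjusted p under 0.05 and 0 by DESeq2), with a median of -0.31. The counts lower were 3 target genes, 6 inhibitors, 4 JAK and STAT genes and 2 receptor chains without replicate 4 of the untreated knockout.

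Sos1 (-0.43, SE 0.07) was lower and Pik3r1 (0.24, SE 0.07) higher with BAPTA-AM among the 7 adaptor and PI3-kinase genes, with a median of -0.08. Gabpa (0.18, SE 0.05), an ETS factor known to act on Il7r, was higher among the 8 regulators of Il7r, with a median of -0.01, where edgeR called 0 lower (0 at an unadjusted p under 0.05 and 0 by DESeq2). Of the 5 regulators of Il15, edgeR called 0 higher and 0 lower, with 0 higher and 1 lower at an unadjusted p under 0.05 and 0 higher and 1 lower by DESeq2, and their median was -0.12. Without that replicate, edgeR called 2 adaptor and PI3-kinase genes higher and 4 lower, and 1 regulator of Il7r and 3 regulators of Il15 lower. Il4 gave -0.02 (SE 0.34), and edgeR called 0 ligands, with 0 at an unadjusted p under 0.05 and 0 by DESeq2.

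4 of the 12 BAPTA-AM calls were lost on leaving out 1 library. The call of Bcl2l1 was lost on leaving out any of 15 libraries, at edgeR adjusted p from 0.0504 to 0.105. That of Pik3r1 was lost without replicate 4 or 5 of WT zymosan or replicate 2 or 4 of BAPTA-AM, at adjusted p from 0.0554 to 0.0770. That of Gabpa was lost without replicate 2 or 4 of BAPTA-AM (adjusted p = 0.0757 and 0.0547) and that of Stat5a without replicate 1 or 2 (adjusted p = 0.0544 and 0.0660).

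In untreated macrophages the genotypes showed no called list gene. Of 48, edgeR called 0 higher (0.128% of all genes tested) and 0 lower (0.222%), with 5 higher and 7 lower at an unadjusted p under 0.05 and 0 and 0 by DESeq2, and the median log2 fold change was 0.00, against 0.02 over all genes tested. The medians of the lists were -0.00 for receptor chains, -0.07 for JAK and STAT genes, -0.04 for inhibitors, -0.04 for adaptors, 0.12 for target genes, 0.06 for regulators of Il7r and 0.06 for regulators of Il15, and Il4 gave 0.61 (SE 0.28). The medians of target genes and of regulators of Il7r and Il15 changed sign without replicate 4, to -0.03, -0.02 and -0.08, and Il4 gave 0.36 (SE 0.32). With it, in each of these lists edgeR and DESeq2 called 0 in either direction. Without replicate 4, edgeR called Irf1 (0.17, adjusted p = 0.0141) higher and Ccnd2 (-0.51, adjusted p = 5.94e-05) and Jak2 (-0.14, adjusted p = 0.0483) lower, with 3 knockout libraries against 4.

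Zymosan was also compared with no treatment within the knockout. 26 of 48 list genes were called higher (34.3% of all genes tested) and 17 lower (39.4%), with a median log2 fold change of 0.38, against -0.06 over all genes tested. Without replicate 4 of the untreated knockout, 29 were called higher (39.2%) and 17 lower (42.4%). Among the 28 genes named, the 3 zymosan libraries did not overlap with the 4 untreated libraries, which likewise largely follows from the choice. The largest edgeR adjusted p was 0.0436. That p belongs to Il2ra (0.66, SE 0.28, and 0.36 without replicate 4), whose call was lost on leaving out any of 11 libraries, at adjusted p from 0.0504 to 0.0979. Irf7 moved from 2.45 to 4.99 on leaving out replicate 4, and its call was lost with only the groups compared (adjusted p = 0.102).

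By list, 4 of 7 inhibitors rose and 3 fell in the knockout, with a median of 1.67. Socs1 (7.15, SE 0.09), Socs3 (6.06, SE 0.10) and Cish (4.83, SE 0.22) rose, and Sh2b3 (-1.84, SE 0.07) fell. 6 of 7 JAK and STAT genes rose and edgeR called 0 lower (0 at an unadjusted p under 0.05 and 0 by DESeq2), with a median of 0.51, led by Jak2 (2.62), Stat5a (1.82), Stat3 (0.84) and Jak1 (0.51). 3 of 4 other receptor chains rose and 1 fell, with a median of 0.55: Il13ra1 (1.50), Il2ra (0.66), Crlf2 (0.44) and Il4ra (-0.82). Il4 gave 0.04 (SE 0.29, and 0.31 without replicate 4), and edgeR called 0 ligands, with 0 at an unadjusted p under 0.05 and 0 by DESeq2.

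4 of 9 target genes rose and 4 fell in the knockout, with a median of 0.11, and without replicate 4 of the untreated knockout 5 rose and 4 fell, with a median of 0.42. Pim1 (5.55, SE 0.25) and Ccnd2 (2.19, and 2.81 without replicate 4) rose, and Id2 (-1.60) and Bcl2l1 (-1.53) fell. 2 of 7 adaptor and PI3-kinase genes rose and 5 fell, with a median of -0.27, among them Pik3cd (-1.29), Sos1 (0.57), Gab2 (0.50) and Shc1 (-0.47). 3 of 8 regulators of Il7r rose and 3 fell, with a median of 0.00, and 4 rose and 3 fell without replicate 4, with a median of 0.11. Gfi1 (2.42, SE 0.70, and 3.18 without replicate 1 of the untreated knockout), Nr3c1 (1.15) and Gabpa (0.78) were the ones that rose with all libraries, and Foxo1 (-0.76) fell furthest. Gfi1 held just 3, 1, 0 and 1 counts in the untreated knockout and 5, 5 and 5 with zymosan. It passed the filter on low counts through WT zymosan libraries, which are not in this comparison. 4 of 5 regulators of Il15 rose and 1 fell, with a median of 2.45, led by Irf1 (5.45), Nfkb1 (2.70), Irf7 (2.45) and Rela (1.97).

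The difference between the zymosan responses, knockout minus WT, was tested directly for each list gene. 7 of 48 were called higher (15.2% of all genes tested) and 19 lower (20%), with a median log2 difference of -0.29, against -0.01 over all genes tested. Without replicate 4 of the untreated knockout, 15 were called higher (31.0%) and 21 lower (29.3%). The largest edgeR adjusted p among the 21 genes named was 0.0376, shared by Tsc22d3 and Runx1. The call of Tsc22d3 (0.66, SE 0.24) was lost on leaving out any of 11 libraries, at adjusted p from 0.0507 to 0.0849, and that of Runx1 (-0.41, SE 0.15, and -0.24 without replicate 4) on leaving out any of 10, at adjusted p from 0.0511 to 0.0703.

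Some other receptor chains and inhibitors responded less, or more negatively, in the knockout. 2 of 4 other receptor chains were lower and edgeR called 0 higher (0 at an unadjusted p under 0.05 and 0 by DESeq2), with a median of -0.54: Il4ra (-1.20, SE 0.06), which rose in WT and fell in the knockout, and Il2ra (-1.18, SE 0.37). Il13ra1 and Crlf2 were called higher without replicate 4 of the untreated knockout, so that 2 chains were higher and 2 lower. 3 of 7 inhibitors were lower and edgeR called 0 higher (0 at an unadjusted p under 0.05 and 0 by DESeq2), with a median of -0.58: Ptpn1 (-1.14, SE 0.08), Sh2b3 (-0.75, SE 0.09) and Socs3 (-0.60, SE 0.12). 2 of 7 JAK and STAT genes were higher and 3 lower, with a median of 0.02, and Stat3 (-0.65), Stat5a (-0.60), Tyk2 (0.30) and Stat5b (-0.29) had the largest differences.

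5 of 7 adaptor and PI3-kinase genes were lower and 1 higher, with a median of -0.29: Pik3cd (-1.29, SE 0.26), Sos1 (-0.99, SE 0.11), Pik3r1 (0.75, SE 0.10) and Grb2 (-0.31, SE 0.05) differed most. 3 of 9 target genes were lower and edgeR called 0 higher (0 at an unadjusted p under 0.05 and 0 by DESeq2), with a median of -0.45: Pim2 (-0.96, SE 0.29), Id2 (-0.47) and Bcl2l1 (-0.45, and -0.29 without replicate 4). In untreated knockout replicate 4, Pik3cd (1237) and Pim2 (494) lay near knockout zymosan (1032 to 1078 and 443 to 460.3). The other untreated knockout libraries held 2998 to 3098 and 1322 to 1418. The part of zymosan, or of what set replicate 4 apart, in these differences was not tested. 3 of 8 regulators of Il7r were higher and 3 lower, with a median of -0.08, led by Foxo1 (0.76, SE 0.17), Tsc22d3 (0.66), Ets1 (-0.55) and Runx1 (-0.41). Nfkb1 (0.34, SE 0.07) was the 1 regulator of Il15 called higher, and edgeR called 0 lower (0 at an unadjusted p under 0.05 and 0 by DESeq2), with a median of 0.06. Leaving out replicate 4 of the untreated knockout, edgeR called 2 target genes and 3 regulators of Il15 higher, and the medians of these lists were -0.25 and 0.32. Il4 gave 0.60 (SE 0.42, and 0.85 without that library), and edgeR called 0 ligands, with 0 at an unadjusted p under 0.05 and 0 by DESeq2.

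Genes with profiles most like that of Il7r were found over the 20 libraries by the root mean square difference of centred log2 levels. The 5 nearest were Ralgapa2 (0.273), Gpnmb (0.278), Spp1 (0.290), Slc40a1 (0.378) and Hmga2 (0.405). Gpnmb encodes a membrane glycoprotein, Spp1 the secreted protein osteopontin, and Slc40a1 the iron exporter ferroportin. With zymosan these genes stood higher in the knockout than in WT by 2.92 (SE 0.43), 2.73 (SE 0.43), 2.62 (SE 0.41), 2.49 (SE 0.57) and 3.01 (SE 0.50) on the log2 scale. As the genes were chosen for their profile over the same libraries, these differences follow from the choice and are a description. Without replicate 4 of the untreated knockout, 3 of the 5 stayed among the nearest, and Prnp and Ctsl entered.

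The 3 genes nearest to Il15 were Tiparp (0.197), Tnfsf10 (0.240), which encodes the death ligand TRAIL, and Mxd1 (0.252). They stood 4.67 (SE 0.07), 4.15 (SE 0.09) and 4.57 (SE 0.10) higher with zymosan in WT, which likewise follows from the choice by profile. Without replicate 4, the 3 nearest were Parp14 (0.169), Slfn5 (0.172) and Ifi203 (0.179), so 0 of the 3 stayed.

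The members lie on 6 chromosomes of the mouse genome (mm10). Il7r lies at chr15:9505788-9530176 and Il2rb at chr15:78479256-78495271, Il15 at chr8:82331632-82403222 and Jak3 at chr8:71676296-71690575. Il2rg lies at chrX:101264378-101268255, Il15ra at chr2:11705290-11734317, Il7 at chr3:7569994-7613760 and Il21r at chr7:125603429-125633570. Il15ra, Il21r and Jak3 are on the plus strand, and the other 5 are on the minus strand.

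RefSeq promoter sequences, 250 bases before to 50 bases after a start on build GRCm38.p6, were matched for 5 of the 8 members (Il7r, Il2rg, Il15ra, Il21r and Jak3), with 2 starts for Il15ra. Il15, Il7 and Il2rb had no entry. Both strands were searched for GGG and CC with any 5 bases between (a pattern like that of NF-kB), GAAA and GAAA with any 2 bases between (like that of interferon regulatory factors), TTCNNNGAA (like that of STAT proteins) and TGANTCA (like that of AP-1). Of all 32817 promoters, 50.8%, 3.43%, 8.29% and 7.81% hold a match to these. The promoters of Il2rg, Jak3 and the first start of Il15ra hold none.

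The 3 promoters with a match are printed because their genes have the largest zymosan or genotype differences among the receptor chains. Capitals mark the matches, and bases are counted from 1 at the 5′ end. Il7r (chr15:9529827-9530126, minus strand) has a TTCNNNGAA match at bases 109 to 117. The second start of Il15ra (chr2:11705462-11705761, plus strand) has a match to the NF-kB-like pattern on the reverse strand at bases 149 to 158 and a TGANTCA match at bases 221 to 227. Il21r (chr7:125603179-125603478, plus strand) has a match to the NF-kB-like pattern on the reverse strand at bases 20 to 29. A match describes the letters of the sequence and is not evidence of binding.
Il7r promoter: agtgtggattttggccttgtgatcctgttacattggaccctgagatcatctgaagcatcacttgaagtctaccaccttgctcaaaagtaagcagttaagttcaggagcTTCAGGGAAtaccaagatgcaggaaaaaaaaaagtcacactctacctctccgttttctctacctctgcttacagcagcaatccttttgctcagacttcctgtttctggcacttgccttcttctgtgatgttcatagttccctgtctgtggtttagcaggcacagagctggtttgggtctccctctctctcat
Il15ra promoter, second start: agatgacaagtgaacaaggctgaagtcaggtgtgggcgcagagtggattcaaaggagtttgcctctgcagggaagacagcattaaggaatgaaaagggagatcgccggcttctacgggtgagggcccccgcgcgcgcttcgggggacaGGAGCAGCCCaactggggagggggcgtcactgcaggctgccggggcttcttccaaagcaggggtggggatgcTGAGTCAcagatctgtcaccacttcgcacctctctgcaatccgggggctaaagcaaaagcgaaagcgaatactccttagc
Il21r promoter: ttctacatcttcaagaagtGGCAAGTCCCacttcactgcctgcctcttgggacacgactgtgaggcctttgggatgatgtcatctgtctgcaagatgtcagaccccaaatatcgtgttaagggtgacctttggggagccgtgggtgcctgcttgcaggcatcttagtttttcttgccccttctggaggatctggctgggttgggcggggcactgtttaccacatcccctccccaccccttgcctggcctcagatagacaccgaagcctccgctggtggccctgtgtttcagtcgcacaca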

How the data were processed

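Gene counts deposited by the authors, made with HTSeq after alignment with STAR to mm10, were used as they stand; the strand setting and annotation of the counting were not stated. 20 libraries were fitted together with edgeR (4.0.16, limma 3.58.1, R 4.3.3): filterByExpr, TMM, quasi-likelihood, 1 coefficient per group, Benjamini-Hochberg over 11707 genes, threshold 0.05. Normalized counts are TMM-scaled CPM times 20.6. RPKM used merged exon lengths of GENCODE M21. Likeness used log2 of CPM plus 0.5. Python 3.11.15, pandas 2.3.3, numpy 2.4.6 and matplotlib 3.10.9 handled tables and figures.

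All 8 members and Mcu are named. Per comparison and pathway list, up to 4 called genes with the largest absolute log2 fold change are named, with the 5 genes nearest to Il7r and the 3 nearest to Il15. Irf1, Irf7, Ccnd2, Jak2, Stat6, Il13ra1 and Crlf2 are also named where leaving out replicate 4 of the untreated knockout changed their calls, chosen after their values were seen. 1 gene of the lists as first set is not reported here and is in none of their counts and medians. Members and lists were chosen with earlier results of these data known. Alternatives were DESeq2 (1.42.0) size factors and Wald test, other filters and normalization, only the groups compared, a replicate block, and leaving out each library. Whether replicates came from separate animals is not stated per library, so p-values measure the spread between these samples.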

Additional observations from a re-analysis of the deposited data

Results flagged for a closer look

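27 of 212 sets of libraries (1 gene in 1 group of 4 or 5) had a library far from the others, by the gap to its nearest neighbour relative to the whole range. Chance alone gives about 1 in 20. 16 of the 27 were replicate 4 of the untreated Mcu knockout. Values are normalized counts, with the range of the other libraries of the group in parentheses.

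In replicate 4 of the untreated knockout, members and receptor chains apart were Il7r at 899 (63.2 to 70.9), Jak3 at 564 (934 to 997) and Il2ra at 49.9 (204 to 209.6). Signalling genes apart in that library were Stat6 at 5004 (3810 to 3906), Pik3r1 at 2404 (3046 to 3134), Pik3cd at 1237 (2998 to 3098), Gab2 at 2514 (1711 to 1825) and Ptpn6 at 8181 (12559 to 12757). Target genes apart in it were Ccnd2 at 1327 (377 to 450.4), Pim2 at 494 (1322 to 1418) and Mcl1 at 10139 (8405 to 8518). Regulators apart in it were Tsc22d3 at 1295 (627 to 667), Gabpa at 1086 (904 to 931), Runx1 at 1579 (1005 to 1062), Irf7 at 12006 (579 to 619.6) and Rela at 1726 (1133 to 1224). For all of these genes but Il2ra and Tsc22d3 it lay away from the other untreated knockout libraries on the side of the knockout zymosan libraries. What set this library apart was not tested.

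The other 11 were spread over groups. In WT untreated they were Il21r in replicate 1 at 2789 (2975 to 2994), Gfi1 in replicate 2 at 1.75 (0 to 0), and, in replicate 4, Crlf2 at 1940 (2283 to 2309), Ptpn2 at 589 (506 to 515) and Il4 at 16.2 (7.94 to 8.79). In WT zymosan they were Sos1 at 3103 (2487 to 2631) and Stat5b at 1576 (1414 to 1451) in replicate 4 and Bcl2l1 at 1522 (1359 to 1405) in replicate 1. With BAPTA-AM, replicate 3 was apart for Il15ra at 929.9 (783 to 808) and Ptpn1 at 7313 (6833 to 6904). Replicate 1 of the untreated knockout was apart for Grb2 at 7735 (7105 to 7165).

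The zymosan response differed between genotypes for 24 list genes that the text names, by the edgeR test of the difference itself. Values are log2 differences, knockout minus WT. Receptor chains lower in the knockout were Il2ra at -1.18 and Il4ra at -1.20. JAK and STAT genes that differed were Jak2 at 0.19, Tyk2 at 0.30, Stat3 at -0.65, Stat5a at -0.60 and Stat5b at -0.29. Inhibitors that differed were Socs3 at -0.60, Ptpn1 at -1.14 and Sh2b3 at -0.75. Adaptors that differed were Sos1 at -0.99, Pik3r1 at 0.75, Pik3cd at -1.29, Shc1 at -0.25 and Grb2 at -0.31. Target genes that differed were Pim2 at -0.96, Id2 at -0.47 and Bcl2l1 at -0.45. Regulators that differed were Foxo1 at 0.76, Tsc22d3 at 0.66, Nr3c1 at 0.15, Ets1 at -0.55, Runx1 at -0.41 and Nfkb1 at 0.34.

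Jak3 had opposite zymosan responses in mean log2 level, 0.33 in WT and -0.38 in the knockout, and a fitted log2 difference of -0.76. As Jak3 is a member, no p is given for this difference.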

How the results depend on the processing

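No called result that the text names changed direction under the alternatives run. Of the list counts, 69 stayed within 1.5 times their value under other settings and 3 moved, and 232 stayed and 8 moved on leaving out 1 library. With BAPTA-AM, 3 list genes were called higher, 5 with only the groups compared, 1 with a replicate block, and 0 to 4 on leaving out 1 library. The 9 called lower were 22 with only the groups compared and 8 to 23 on leaving out 1 library. In the untreated knockout, leaving out 1 library gave 0 to 1 higher and 0 to 2 lower. The difference of zymosan responses gave 7 higher, and 6 to 15 on leaving out 1 library. The cause was not tested, except that the highest counts on leaving out a library came without replicate 4 of the untreated knockout, which lowers the shared estimate of spread.

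The Il7r difference between genotypes with zymosan was 3.03 with a replicate block, against 3.19. On leaving out 1 library its range was 0.22 to 2.58 between untreated genotypes, 1.5 to 3.86 for zymosan in the knockout, and 0.61 to 2.97 for the difference of the responses. Members' values moved beyond the spread of replicates 3 times under other settings, against 213 that did not, and 3 times against 717 on leaving out 1 library. Named list genes kept their call in 677 values and lost it in 15 under other settings, and kept it in 2268 and lost it in 72 on leaving out 1 library. Replicates of the same number, taken for knockout zymosan from the count table and not from the sample titles, did not pair: 33 pairs had correlations from -0.0549 to 0.0614. With a replicate block, edgeR did not call the differences of responses of Il2ra (adjusted p = 0.0597) and Pim2, among others. Depth limits Il7 and Il2rb, which had too few counts to compare.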
